A study of Mus musculus with 7 samples.

Results

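The genes described here encode 10 proteins studied in the repair of the muscle surface membrane and in muscle diseases tied to it: the ferlins dysferlin and myoferlin (Dysf, Myof), the annexins A1, A2, A4, A5 and A6 (Anxa1, Anxa2, Anxa4, Anxa5, Anxa6), the repair protein MG53 (Trim72), caveolin 3 (Cav3) and the muscle calpain (Capn3). They were chosen by symbol, and all 10 were found among the 29869 gene symbols of the deposited count table. The 7 libraries were made from whole soleus, a hindlimb muscle rich in slow fibres, of mice 60 days old. Titles of the samples give 3 libraries labelled mdx/Runx1f/f (replicates 1 to 3, animals 359, 363 and 374) and 4 labelled mdx (replicates 1 to 4, animals 358, 361, 373 and 375). All 7 animals carry mdx, the mutation that removes dystrophin and models Duchenne muscular dystrophy, so no library comes from muscle that keeps dystrophin. The label of the first group names floxed Runx1 alleles, and floxed refers below to that label. The labels name no Cre driver and no deleted exon. Runx1 encodes a transcription factor that is induced in damaged and denervated muscle, and the series title asks which genes respond to it.

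When a muscle fibre is torn, calcium enters and calls vesicles and calcium-binding proteins to the hole. MG53 gathers vesicles at the wound, dysferlin takes part in their fusion with the surface membrane, and annexins bind the exposed lipids and form a cap that seals the gap. Caveolin 3 shapes the caveolae of the fibre surface and binds dysferlin and MG53. Mutations of dysferlin, caveolin 3 or calpain 3 cause muscle disease in people, and dystrophin-deficient fibres tear more easily than normal ones. Annexins A1, A2 and A5 and myoferlin are made by many cell types, macrophages and connective tissue cells among them, while Trim72, Cav3 and Capn3 are mostly made by muscle fibres. In whole muscle, fewer cells of a type and less RNA per cell cannot be told apart.

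The group labels hold a conflict that touches every direction given here. Runx1 itself stood at 919, 925 and 596 normalised read counts in the libraries labelled mdx/Runx1f/f, against 274, 273, 235 and 201 in the libraries labelled mdx (log2 fold change 1.74, SE 0.18, adjusted p = 0.00795, edgeR). Its transcript was thus higher in the floxed group. The counts are per gene and do not show whether a part of Runx1 was deleted. Had both group names been exchanged, every sign given here would reverse, and this was not tested. The description field ties most animal numbers to another sample, and the design text gives the group sizes the other way round. Joined through the description field, 8 genes were called in all and none of the 10, against 975 in all when joined through the titles. These numbers do not show which group carries which name, because exchanging both names would leave the calls the same and turn their signs. Total counts ran from 16218306 to 20847902 per library. The 10 genes took 1580 to 2174 CPM together (CPM are counts scaled to the same library total), with 213 to 11012 counts for a gene in a library. Myh7 is the slow myosin heavy chain gene that marks soleus fibres. It had 40503, 133265 and 128319 normalised counts in the libraries labelled mdx/Runx1f/f, against 261312, 221441, 275132 and 140992 in those labelled mdx. Floxed replicate 1 stood far below the rest, and floxed replicates 2 and 3 lay near mdx replicate 4.

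Of the 10 genes, 1 passed the test and 9 did not. Capn3 fell in the libraries labelled mdx/Runx1f/f, to 0.636 of its mean in the libraries labelled mdx. Myof, Anxa1, Anxa2 and Anxa5 had means 2.20, 1.91, 1.77 and 1.53 times those of the libraries labelled mdx, with unadjusted p below 0.05 and adjusted p between 0.066 and 0.080. Dysf, Anxa4, Anxa6 and Cav3 had log2 fold changes between -0.21 and -0.0036, all with intervals that span 0, and Trim72 stood at -0.36. Across the 14033 genes tested with edgeR's quasi-likelihood test and Benjamini-Hochberg adjustment, 6.95% were called at an adjusted p below 0.05, 1.85% lower and 5.10% higher, so 1 call among 10 is near the background. At an unadjusted p below 0.05 were 5 of the 10, against 29.5% of all tested genes: 4 higher, against 17.1%, and 1 lower, against 12.4%. Libraries of both labels were apart in 5 of the 10, against 27.4% of all tested genes: 3 stood above, against 13.9%, and 2 below, against 13.6%. Called higher were 0 of the 10 by edgeR, 0 by limma-voom, against 5.24% of all genes, and 4 by DESeq2, against 10.7%. Each tool called Capn3 alone lower, against 2.05% of all genes by limma-voom and 6.33% by DESeq2. The median log2 fold change of the 10 was -0.05, and that of all tested genes was -0.0016.

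**Figure D1:**
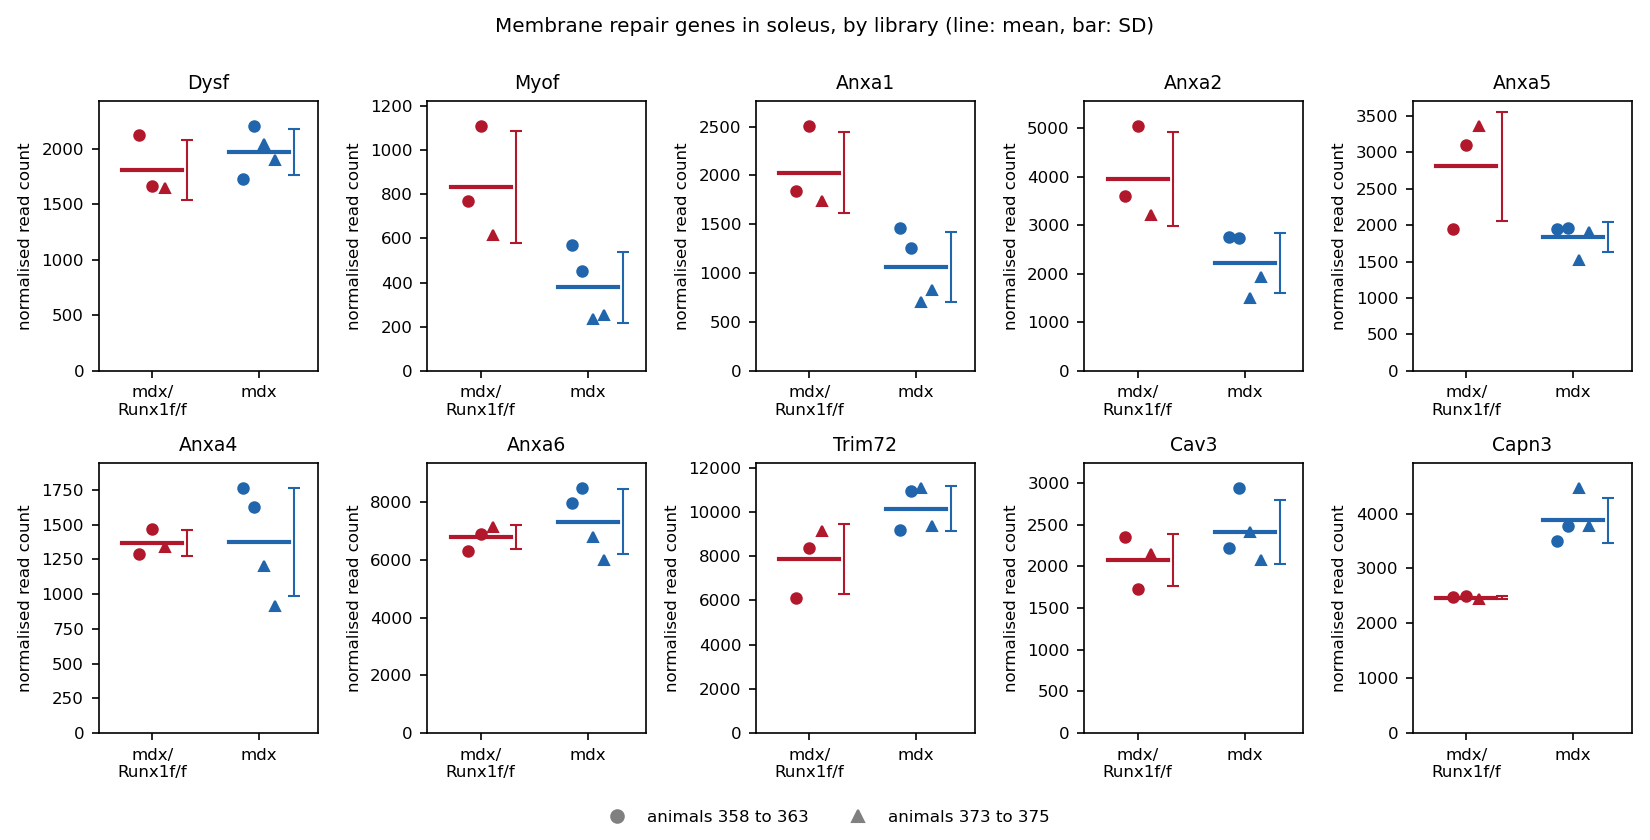
Normalised read counts of the 10 genes in each library (vertical axes, from 0), with the libraries labelled mdx/Runx1f/f on the left of each panel and those labelled mdx on the right. Lines are group means, bars are SD (n = 3 and n = 4), circles are animals 358 to 363 and triangles animals 373 to 375. Capn3 sits at 2445 to 2489 against 3509 to 4468, and Dysf overlaps between the groups.

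Capn3, the gene of the muscle calpain, a protease bound to titin in the sarcomere, was the called gene. It had 2476, 2489 and 2445 normalised counts in the libraries labelled mdx/Runx1f/f, against 3509, 3775, 4468 and 3775 in the libraries labelled mdx. The 3 floxed libraries lay far closer together than those of the other group, and both groups were apart. Their means were 2470.2 ± 22.5 (SD, n = 3) and 3882 ± 411 (SD, n = 4), a coefficient of variation of 0.909% against 10.6%. A spread taken from 3 libraries is uncertain, and the difference in spread was not tested. The log2 fold change was -0.64 (SE 0.10, 95% interval -0.89 to -0.40, adjusted p = 0.0183, edgeR), and lower values were seen in 3 of 3 libraries. Without mdx/Runx1f/f replicate 2 the call was lost (log2 fold change -0.65, edgeR adjusted p = 0.0614), and it held when any other library was left out. Within animals 358 to 363 the difference in log2 CPM was -0.54, and within animals 373 to 375 it was -0.74.

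The summed normalised count of 7 mature fibre genes (Myh7, Myh2, Ckm, Mb, Acta1, Tnnt1, Tnni1) was also lower without overlap, at 952060 to 1177580 in the libraries labelled mdx/Runx1f/f, against 1318940 to 1657260 in those labelled mdx. EdgeR and limma-voom called 0 of these 7 genes and DESeq2 called Myh7 lower. An unadjusted p below 0.05 by edgeR was reached by 2, both lower, against 12.4% of all tested genes, and none was at 0 in any library. Of the 7 genes, 3 were below without overlap (Myh7, Acta1 and Tnnt1), against 13.6% of all tested genes, and the others overlapped. Log2 fold changes were largest for the slow-fibre genes Myh7, Tnnt1 and Tnni1, at -1.15, -1.02 and -0.98, each lowest in floxed replicate 1. They were -0.45 for Mb, -0.31 for Acta1, -0.18 for Myh2 and -0.0061 for Ckm. The list holds neither Myh1 nor Myh4, fast myosin genes, so the sum does not stand for all fibre types alike. Acta1 was the largest part of the sum, at a mean of 524069 in the libraries labelled mdx/Runx1f/f, against 655174 in those labelled mdx. Set against this sum, Capn3 was 0.260%, 0.258% and 0.208% in the libraries labelled mdx/Runx1f/f and 0.263%, 0.286%, 0.270% and 0.286% in those labelled mdx. These shares did not overlap, but the nearest pair, replicate 1 of each group, differed in the third decimal. Relative to Dysf, a gene of the fibre surface, Capn3 counts were 1.17, 1.50 and 1.48 times as high in the libraries labelled mdx/Runx1f/f, against 2.03, 1.71, 2.18 and 1.99 times in those labelled mdx. Capn3 alone was already apart, so this ratio is not a separate result. The part of the fibre genes in the Capn3 result was not tested beyond these shares.

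Promoter sequences of Capn3 and of the ferlin pair are shown because Capn3 carried the call and the ferlins parted in their values. RefSeq lists 2 starts for Capn3, 2 for Dysf and 1 for Myof, and each line gives the 250 bases before a start on GRCm38.p6, 5′ to 3′ on the gene's own strand. The intervals are chr2:120463343-120463592 and chr2:120476659-120476908 for Capn3, both on the plus strand, chr19:38043578-38043827 on the minus strand for Myof, and chr6:84008348-84008597 and chr6:84019136-84019385 on the plus strand for Dysf. Capitals mark the letters TGTGGT or TGCGGT on either strand, the core that Runx proteins are known to bind.
Capn3 start 1: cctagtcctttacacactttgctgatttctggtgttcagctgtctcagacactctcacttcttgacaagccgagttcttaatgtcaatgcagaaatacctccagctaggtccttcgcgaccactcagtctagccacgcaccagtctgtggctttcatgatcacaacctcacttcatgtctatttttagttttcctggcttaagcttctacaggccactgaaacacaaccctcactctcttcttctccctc
Capn3 start 2: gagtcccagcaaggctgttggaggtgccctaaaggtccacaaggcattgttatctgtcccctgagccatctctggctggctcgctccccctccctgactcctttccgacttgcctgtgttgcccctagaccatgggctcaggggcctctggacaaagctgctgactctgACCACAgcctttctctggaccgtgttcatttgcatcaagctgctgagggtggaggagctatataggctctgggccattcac
Myof: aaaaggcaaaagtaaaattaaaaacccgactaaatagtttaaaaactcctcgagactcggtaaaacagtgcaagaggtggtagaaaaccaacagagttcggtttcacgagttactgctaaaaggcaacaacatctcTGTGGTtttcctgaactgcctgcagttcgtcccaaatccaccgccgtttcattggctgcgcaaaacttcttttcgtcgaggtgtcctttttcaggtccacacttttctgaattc
Dysf start 1: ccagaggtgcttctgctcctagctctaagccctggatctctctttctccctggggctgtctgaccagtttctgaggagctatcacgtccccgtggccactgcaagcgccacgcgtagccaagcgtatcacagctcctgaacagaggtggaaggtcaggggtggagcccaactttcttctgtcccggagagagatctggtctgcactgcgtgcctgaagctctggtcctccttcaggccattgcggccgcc
Dysf start 2: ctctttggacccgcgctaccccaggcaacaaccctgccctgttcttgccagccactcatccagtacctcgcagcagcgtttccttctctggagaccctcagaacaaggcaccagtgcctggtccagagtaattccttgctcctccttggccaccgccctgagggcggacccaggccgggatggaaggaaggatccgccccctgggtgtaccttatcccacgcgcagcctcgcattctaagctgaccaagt
A match stood at -81 from the second Capn3 start and another at -114 from the Myof start, and neither Dysf window held one. Of the 9 genes in the promoter table, 4 had a match at a start: Capn3, Myof, Trim72 and Anxa5. By start, 4 of 12 windows held one, or 33.3%, against 18.6% of 32851 windows of the same length over all genes. A match is a description of the letters in a window and not a bound site.

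Both ferlins, large membrane proteins with repeated calcium-binding C2 domains, were measured in every library. Dysf, the repair ferlin of mature fibres, had 2122, 1663 and 1648 normalised counts in the libraries labelled mdx/Runx1f/f, against 1726, 2207, 2047 and 1901 in those labelled mdx. The groups overlapped, and the log2 fold change was -0.11 (SE 0.13, 95% interval -0.41 to 0.19, adjusted p = 0.600, edgeR). Myof, which acts in myoblast fusion and is abundant in regenerating muscle and in non-muscle cells, had 769.8, 1110.4 and 614 normalised counts in the libraries labelled mdx/Runx1f/f, against 571, 454, 235 and 255 in those labelled mdx. Every floxed library stood above every library labelled mdx. The nearest pair, floxed replicate 3 and mdx replicate 1, was 614 against 571. The log2 fold change of Myof was 1.14 (SE 0.34, 95% interval 0.36 to 1.92, adjusted p = 0.0752, edgeR), which did not pass the threshold. Left out in turn, the libraries gave log2 fold changes of 0.88 to 1.40, and without mdx replicate 1 Myof was called (edgeR adjusted p = 0.0474).

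The share of Myof beside Dysf was read in each library as the ratio of their normalised counts. It was 0.363, 0.668 and 0.372 in the libraries labelled mdx/Runx1f/f, against 0.330, 0.206, 0.115 and 0.134 in those labelled mdx. The groups did not overlap, although floxed replicate 1 and mdx replicate 1 lay close together. Myof alone was apart in the same way and Dysf overlapped, so the ratio is not a separate result. Means were 0.468 ± 0.173 (SD, n = 3) and 0.196 ± 0.098 (SD, n = 4). Both exon models are of nearly the same length, 7.15 kb for Myof and 7.21 kb for Dysf in GENCODE M21, so the ratio per length was 0.472 and 0.198. Dysf was therefore the more abundant ferlin per length in both groups.

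**Figure D2:**
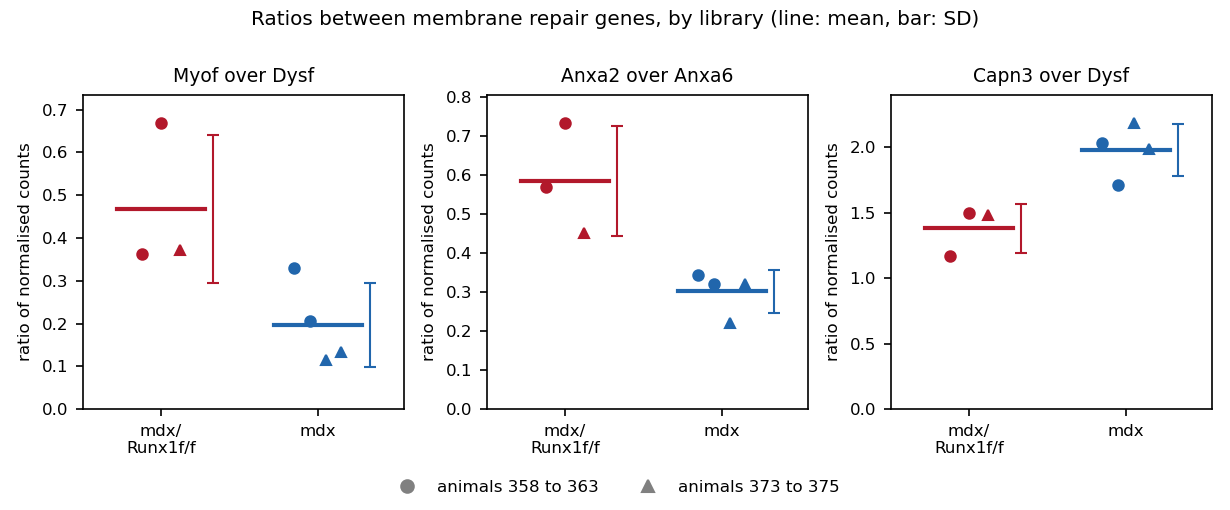
Ratios of normalised counts between pairs of the 10 genes in each library (vertical axes, from 0), with the libraries labelled mdx/Runx1f/f left of those labelled mdx. Lines are means, bars are SD, circles are animals 358 to 363 and triangles animals 373 to 375. Myof over Dysf is 0.363 to 0.668 against 0.115 to 0.330, and Capn3 over Dysf is 1.17 to 1.50 against 1.71 to 2.18. The share of all gene pairs apart in this way was not counted.

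Among the annexins, which bind acidic membrane lipids when calcium is present, A1, A2 and A5 had higher means in the libraries labelled mdx/Runx1f/f and A4 and A6 did not. Anxa1, also known for calming neutrophil responses, had 1837, 2507.5 and 1743 normalised counts in the libraries labelled mdx/Runx1f/f, against 1459, 1261, 709 and 826 in those labelled mdx. The groups did not overlap, and the log2 fold change was 0.94 (SE 0.26, 95% interval 0.34 to 1.54, adjusted p = 0.0661, edgeR). Anxa2, which pairs with S100a10 at the inner face of the membrane, had 3599, 5046 and 3218 normalised counts in the libraries labelled mdx/Runx1f/f, against 2748, 2733, 1505 and 1927 in those labelled mdx. Its groups were apart as well, with a log2 fold change of 0.83 (SE 0.24, 95% interval 0.27 to 1.39, adjusted p = 0.0729, edgeR).

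Anxa5, the annexin widely used to stain dying cells, stood at 1949, 3104 and 3364 normalised counts in the libraries labelled mdx/Runx1f/f, against 1947, 1966, 1524 and 1907 in those labelled mdx. Floxed replicate 1 lay inside the range of the other group, while replicates 2 and 3 lay above it. Its log2 fold change was 0.62 (SE 0.19, 95% interval 0.18 to 1.05, adjusted p = 0.0799, edgeR), and without mdx/Runx1f/f replicate 1 it was 0.82 and called (edgeR adjusted p = 0.0276). Leaving out mdx replicate 1 made the call for Anxa1 (log2 fold change 1.12, edgeR adjusted p = 0.0450). Anxa2 was not called when any of the 7 libraries was left out.

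Anxa4, an annexin of epithelia and other tissues, had 1287, 1468 and 1339 normalised counts in the libraries labelled mdx/Runx1f/f, against 1763, 1623, 1199 and 916 in those labelled mdx. The floxed libraries lay inside the wide range of the other group (log2 fold change -0.0036, SE 0.21, 95% interval -0.49 to 0.49, adjusted p = 0.994, edgeR). Anxa6, an annexin abundant in muscle and, in mice, a modifier of muscular dystrophy, had 6319.6, 6894 and 7151 normalised counts in the libraries labelled mdx/Runx1f/f, against 7977, 8492, 6807 and 6003 in those labelled mdx. The groups overlapped (log2 fold change -0.10, SE 0.14, 95% interval -0.43 to 0.22, adjusted p = 0.666, edgeR). Counts of Anxa2 over Anxa6 were 0.570, 0.732 and 0.450 in the libraries labelled mdx/Runx1f/f, against 0.345, 0.322, 0.221 and 0.321 in those labelled mdx, without overlap. Anxa2 alone was already apart, so this ratio is not a separate result. Per length of the exon models, Anxa2 and Anxa6 were level in the floxed group, at a mean ratio of 1.00, against 0.520 in the group labelled mdx.

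The libraries labelled mdx were also compared by animal number. Animals 358 and 361 had more Myof, Anxa1, Anxa2, Anxa4, Anxa5 and Anxa6 than animals 373 and 375, without overlap. The mean difference in log2 CPM was 1.05 for Myof, 0.82 for Anxa1, 0.68 for Anxa2 and 0.20 for Anxa5. For Anxa5 the nearest values were close, at 1947 in animal 358 against 1907 in animal 375. Only 2 libraries stand against 2 here, so groups apart arise often by chance. The share of all tested genes apart in this way was not counted. Between the groups, the difference in log2 CPM of Myof was 0.87 within animals 358 to 363 and 1.33 within animals 373 to 375, where 1 floxed library stands against 2. That of Anxa1 was 0.67 and 1.19, that of Anxa2 was 0.64 and 0.92, and that of Anxa5 was 0.34 and 0.99. Signs differed between both sets of animals for Anxa4, at -0.29 and 0.36, and for Anxa6, at -0.31 and 0.17. With the number series as a covariate, Myof, Anxa1 and Anxa2 were called higher (edgeR adjusted p = 0.0130, 0.0171 and 0.0215) and Capn3 lower (edgeR adjusted p = 0.0135), in a fit that called 8.88% of all genes higher and 4.15% lower. The number series is known from the titles alone, and what it stands for is not stated.

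Markers of other cells moved in part with Myof and the annexins. The 8 macrophage markers (Cd68, Emr1, Csf1r, Itgam, Mrc1, Cd163, C1qa, Lyz2) summed to 15057, 31696 and 11185 normalised counts in the libraries labelled mdx/Runx1f/f, against 11996, 7099, 2727 and 3477 in those labelled mdx. EdgeR and limma-voom called 1 of these 8 genes higher, C1qa, and DESeq2 called 4, C1qa, Cd163, Csf1r and Mrc1. Of all tested genes, edgeR called 5.10% higher, limma-voom 5.24% and DESeq2 10.7%. All 8 macrophage markers had positive log2 fold changes with a median of 1.61. Of them, 6 were higher at an unadjusted p below 0.05 by edgeR, against 17.1% of all tested genes. Without overlap 4 stood above, against 13.9% of all tested genes, and none was at 0. The 6 markers of fibro-adipogenic progenitors, the connective tissue precursors of muscle (Pdgfra, Dpt, Lum, Dcn, Ly6a, Pi16), summed to 29458, 25249 and 30865 in the libraries labelled mdx/Runx1f/f, against 13759, 14553, 11082 and 13085 in those labelled mdx. Of these 6 genes 5 rose by edgeR and limma-voom and 6 by DESeq2, the median log2 fold change was 1.12, and none was at 0. From the highest library down, Myof, Anxa1 and Anxa2 each ran floxed replicates 2, 1 and 3, then mdx replicates 1, 2, 4 and 3. The macrophage sum ran in the same order but for 1 swap of neighbours, mdx replicate 1 before floxed replicate 3. How many of all tested genes run in this order was not counted. In the progenitor sum floxed replicate 2 was the lowest of its group, and it was the highest in Myof, Anxa1 and Anxa2. Sums of the 5 endothelial markers (8282 to 11864 against 7238 to 14826), the 5 smooth muscle and pericyte markers (10396 to 15931 against 8137 to 11625) and the 6 satellite and regenerating markers (5571 to 16303 against 3768 to 10368) overlapped. EdgeR and limma-voom called 0 of those 16 genes, and DESeq2 called Acta2 and Myog higher. At an unadjusted p below 0.05 by edgeR 7 were higher, 4 of smooth muscle and pericytes and 3 of the satellite and regenerating list. Median log2 fold changes were -0.02 for the endothelial list, 0.52 for smooth muscle and pericytes and 0.45 for the satellite and regenerating list. The 4 adipocyte markers summed to 585 to 2207 in the libraries labelled mdx/Runx1f/f, against 181 to 459.6 in those labelled mdx, and edgeR called 3 of them higher, limma-voom 1 and DESeq2 all 4, with a median log2 fold change of 2.32. The part of these cells in the values of Myof and the annexins was not tested.

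**Figure D3:**
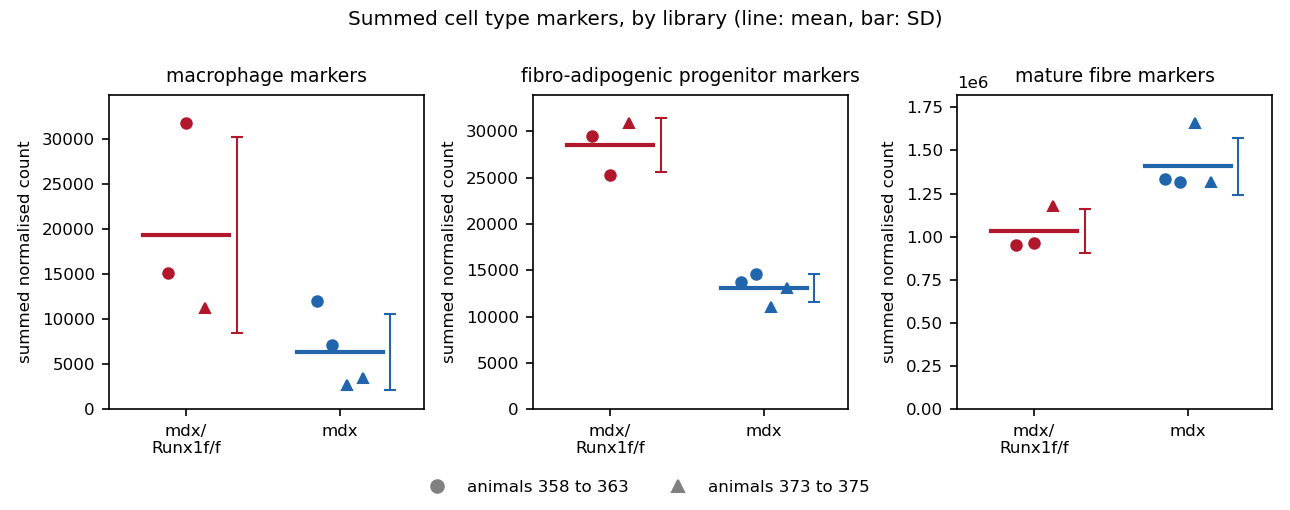
Summed normalised counts of the macrophage, fibro-adipogenic progenitor and mature fibre markers in each library (vertical axes, from 0), with the libraries labelled mdx/Runx1f/f left of those labelled mdx. Lines are means, bars are SD, circles are animals 358 to 363 and triangles animals 373 to 375. The progenitor sums are 25249 to 30865 against 11082 to 14553, and the macrophage sums overlap.

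Trim72 encodes MG53, a ubiquitin ligase of striated muscle that brings vesicles to a wound. It had 6099, 8352 and 9148 normalised counts in the libraries labelled mdx/Runx1f/f, against 9172, 10963, 11082 and 9359.6 in those labelled mdx. The groups did not overlap, but floxed replicate 3 and mdx replicate 1 nearly met, at 9148 against 9172. The log2 fold change was -0.36 (SE 0.16, 95% interval -0.73 to 0.01, adjusted p = 0.179, edgeR). Without mdx/Runx1f/f replicate 1, the lowest library, it was -0.21 (edgeR adjusted p = 0.342). An antisense gene of GENCODE M21, Gm15533, covers 27.6% of the Trim72 exon bases, and the strand setting of the counts is not given in the sources used here, so reads of both cannot be told apart. As a share of the mature fibre sum Trim72 overlapped between the groups, at 0.641% to 0.867% in the libraries labelled mdx/Runx1f/f and 0.669% to 0.831% in those labelled mdx.

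Cav3, the caveolin of muscle fibres, had 2348, 1734 and 2147 normalised counts in the libraries labelled mdx/Runx1f/f, against 2219.8, 2942, 2412 and 2072 in those labelled mdx. The groups overlapped (log2 fold change -0.21, SE 0.15, 95% interval -0.56 to 0.15, adjusted p = 0.400, edgeR). Trim72 counts were 2.60, 4.82 and 4.26 times those of Cav3 in the libraries labelled mdx/Runx1f/f, against 4.13, 3.73, 4.59 and 4.52 times in those labelled mdx. Floxed replicate 1 had the lowest ratio of all 7 and floxed replicate 2 the highest.

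**Figure D4:**
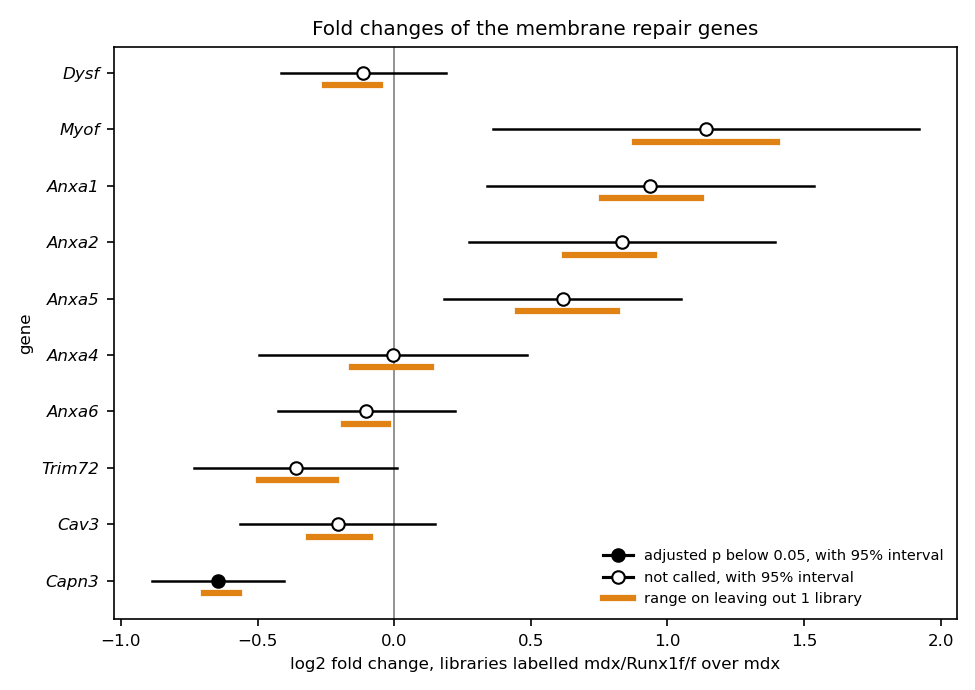
Log2 fold changes of the 10 genes (horizontal axis, libraries labelled mdx/Runx1f/f over those labelled mdx) with 95% intervals from edgeR, and in orange the range over the 7 fits that leave out a library. The filled point, Capn3 at -0.64, passed an adjusted p of 0.05, and the intervals of Myof, Anxa1, Anxa2 and Anxa5 lie above 0 without passing it.

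Levels were set in order per kb of the GENCODE M21 exon model, in normalised counts per kb. From the highest down, the order in the floxed libraries was Trim72 (3523 ± 708, SD, n = 3), Anxa2, Anxa6, Cav3, Anxa5, Anxa1, Capn3, Anxa4, Dysf and Myof (116 ± 35.5, SD, n = 3). In those labelled mdx it was Trim72 (4543 ± 456, SD, n = 4), Anxa6, Cav3, Anxa2, Capn3, Anxa5, Anxa4, Anxa1, Dysf and Myof (53.0 ± 22.6, SD, n = 4). Neighbours differed by more than the sum of their SDs in 4 of the 9 steps of the floxed group: from Anxa6 to Cav3, Anxa1 to Capn3, Anxa4 to Dysf and Dysf to Myof. In the group labelled mdx they did so in 5 of 9 steps: from Trim72 to Anxa6, Anxa6 to Cav3, Anxa5 to Anxa4, Anxa1 to Dysf and Dysf to Myof. Other neighbours did not differ beyond their spread. Both ferlins were the lowest of the 10 in either group, and Trim72 was the highest.

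The wider repair machinery was read from 7 lists of 49 genes, of which 47 were in the table and 43 were tested. Of these 43, 2 rose and none fell, against 5.10% and 1.85% of all tested genes, and the median log2 fold change was 0.04. By limma-voom, 2 rose and none fell, against 5.24% and 2.05% of all genes, and by DESeq2 5 rose and 2 fell, against 10.7% and 6.33%. At an unadjusted p below 0.05 by edgeR 6 were higher and 4 lower, against 17.1% and 12.4% of all tested genes. The same shares are the background of the unadjusted counts by list. The risen genes were Anxa3 and Prkcdbp. Anxa3, an annexin of neutrophils and endothelium, had 635, 802 and 781 normalised counts in the libraries labelled mdx/Runx1f/f, against 481, 419.8, 533 and 499.5 in those labelled mdx (log2 fold change 0.62, SE 0.12, adjusted p = 0.0269, edgeR). Prkcdbp, which encodes cavin 3 of the caveolar coat, had 531, 569.6 and 513 normalised counts in the libraries labelled mdx/Runx1f/f, against 257, 315, 268 and 421 in those labelled mdx (log2 fold change 0.78, SE 0.17, adjusted p = 0.0401, edgeR). Both genes were apart between the groups. The call of Anxa3 was lost without mdx/Runx1f/f replicate 2 or 3 or mdx replicate 2, 3 or 4 (edgeR adjusted p = 0.0894, 0.0579, 0.0577, 0.0564 and 0.0634). That of Prkcdbp held without mdx replicate 4 (edgeR adjusted p = 0.0305) and was lost in the other 6 such fits, with edgeR adjusted p from 0.0618 to 0.121.

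By list, 1 of 5 tested further annexins rose, with Anxa11 at -0.22 on the log2 scale and Anxa9, at 17.6 against 9.73 mean normalised counts, at 0.89 (edgeR adjusted p = 0.293 and 0.364). Of the other ferlins Otof alone was tested and not called by any of the 3 tools, at a mean of 4.95 against 12.3 normalised counts with a log2 fold change at -1.24 (edgeR adjusted p = 0.244). Of the 6 S100 and Ahnak genes, the binding partners of annexins, edgeR and limma-voom called 0 and DESeq2 called 2 higher, S100a6 and S100a11. These 2 had an unadjusted p below 0.05 by edgeR, and all 6 had positive log2 fold changes, with a median of 0.73. The nearest to the threshold were S100a6 (0.88, edgeR adjusted p = 0.0553) and S100a11, the partner of annexin A1 (0.85, edgeR adjusted p = 0.0557), followed by S100a4 (1.01, edgeR adjusted p = 0.211). S100a10, the partner of annexin A2, had 1343, 1765 and 943 normalised counts in the libraries labelled mdx/Runx1f/f, against 1101, 1346, 485 and 645 in those labelled mdx, and its groups overlapped. It was named after its values were seen, for its link to Anxa2.

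Of 11 further caveolar genes 1 rose by edgeR, Prkcdbp, and DESeq2 also called Ehd4 higher and Pacsin3 lower, with Ehd4 at a log2 fold change of 0.53 and Pacsin3 at -0.44 (edgeR adjusted p = 0.0672 and 0.0839). Among the calpains and their inhibitor 0 of 4 were called by edgeR, limma-voom or DESeq2, and 0 had an unadjusted p below 0.05. The ubiquitous calpain genes Capn1 and Capn2 had log2 fold changes of 0.09 and 0.28 and the shared small subunit gene Capns1 -0.06 (edgeR adjusted p = 0.728, 0.278 and 0.726). The 9 genes of the ESCRT machinery, which pinches off damaged membrane, held 0 calls by edgeR and limma-voom, 1 by DESeq2 (Vps4a, lower), and 2 at an unadjusted p below 0.05 by edgeR, Vps4a at -0.25 and Chmp2b at -0.22 (edgeR adjusted p = 0.0872 and 0.147), with Chmp2a at -0.13. The 7 tested genes of vesicle fusion and lysosome exocytosis held 0 calls by the 3 tools and 0 at an unadjusted p below 0.05, with Smpd1 at -0.24 (edgeR adjusted p = 0.177), Bin1 at -0.17 and Dnm2 at -0.05. Their medians were -0.02 and -0.04. Vamp7 was listed at 0 in each library.

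**Figure D5:**
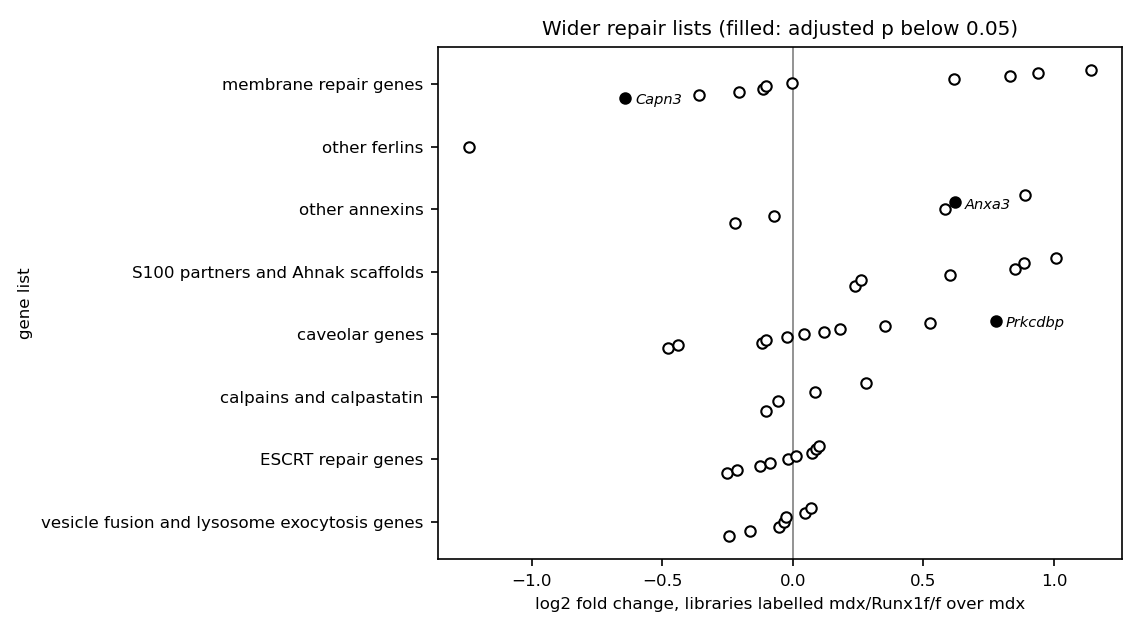
Log2 fold changes of the 10 genes and of the 43 tested genes of the wider repair lists (horizontal axis, libraries labelled mdx/Runx1f/f over those labelled mdx), 1 row per list. Filled points passed an adjusted p of 0.05: Capn3 at -0.64, Anxa3 at 0.62 and Prkcdbp at 0.78.

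Likeness of pattern was measured as the root mean square difference in log2 CPM over the 7 libraries, each gene centred on its own mean. It was searched among 9290 genes with a mean of at least 100 normalised counts. Genes with Gm, Rik, LOC or clone-like symbols were left out. Myof, which spans 2.23 on this scale, was closest to Ctsh, a lysosomal cathepsin gene, at 0.107, to Apbb1ip, an adaptor gene of blood cells, at 0.113, and to Slc1a5, a glutamine transporter gene, at 0.122. Dysf, which spans 0.41, was closest to Cd164 (0.063), Bbs2 (0.071) and Stoml1 (0.074). Trim72, which spans 0.83, was closest to Atg13, an autophagy gene, at 0.059, to Ube2g2, a ubiquitin-conjugating enzyme gene, at 0.077, and to Synpo at 0.084. Genes that vary little are close to many others on this measure, and the 7 libraries share their groups and depth.

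The authors' deposited table gives adjusted p-values below 0.05 for 5 of the 10 genes, among 19.0% of the genes for which it gives one. In the authors' deposited table the log2 fold changes were 0.92 for Myof, 0.81 for Anxa1, 0.73 for Anxa2, 0.57 for Anxa5 and -0.64 for Capn3. The adjusted p-values beside them in the authors' deposited table were 0.0197, 0.0142, 0.0209, 0.0333 and 7.01e-08. DESeq2 on the deposited counts called the same 5 genes, 4 higher and 1 lower, where it called 17.0% of all genes. The call for Capn3 was thus shared by edgeR, DESeq2 and the deposited table. Those for Myof, Anxa1, Anxa2 and Anxa5 were made by DESeq2 and the deposited table and not by edgeR with group as the only term. With the number series as a covariate, edgeR did call Myof, Anxa1 and Anxa2. The deposited values have DESeq2's column names, so they are not a separate method.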

How the data were processed

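RNA was extracted from whole soleus with the 5PRIME PerfectPure tissue kit and made into Illumina TruSeq libraries, per the labels' protocols. The authors deposited raw read counts per gene symbol, made with TopHat2 2.0.10 and HTSeq on mm9, per the submitters' processing notes. They also deposited a signal called normalised read count here, the counts over 1 size factor per library (the ratio of both blocks was checked to be constant per library). The deposited log2 fold changes, the score they were tested with and the p-values have DESeq2's column names, per the file headers, and the notes name DESeq2 1.6.3. Annotation and strand setting were not given in the sources used here.

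Columns were joined to samples by the animal number in the titles. All 7 libraries went into 1 edgeR fit (edgeR 4.0.16, R 4.3.3, TMM scaling, filterByExpr, quasi-likelihood test, group as the only term), with Benjamini-Hochberg adjustment over 14033 genes holding 99.9% of all counts and a threshold of 0.05. All 10 genes passed the filter. The standard error is the log2 fold change over the root of F, and log2 CPM used a prior count of 2. Titles name separate animals. No pair of libraries of a group agreed within sampling noise (lowest chi-square 15.8 per degree of freedom). The pairs that hold mdx/Runx1f/f replicate 1 differed most, at 116 and 136. Floxed replicates 2 and 3 gave 57.9, and the highest pair labelled mdx gave 51.4. The fit was tested on simulated data. DESeq2 1.42.0 and limma-voom (limma 3.58.1) were alternatives. Exon lengths are those of GENCODE M21 and promoters those of RefSeq (GRCm38.p6). The genes and lists were chosen with earlier results of these data known. Named beside the 10 were Runx1, up to 3 genes per wider list with the smallest p, and the 3 genes most like Dysf, Myof and Trim72. Of 100 list entries, 1 was matched by a RefSeq synonym (Chmp3 as Vps24).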

Additional observations from a re-analysis of the deposited data

Results flagged for a closer look

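In 3 of the 39 genes screened (Runx1, the 10 genes, the leading genes of the wider lists and those most like Dysf, Myof and Trim72), 1 library labelled mdx lay far from the other 3, which chance gives in about 1 of 20 groups. Anxa5 stood at 1524 normalised counts in mdx replicate 3, against 1907 to 1966 in the others, a gap of 0.866 of the range. Ehd4 stood at 2474 in mdx replicate 2, against 1706 to 1819 in the others, a gap of 0.853 of the range. Capn1 stood at 1425 in mdx replicate 4, against 1649 to 1680.3 in the others, a gap of 0.879 of the range.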

How the results depend on the processing

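Over the 14 alternatives that keep the titles' groups, 9 of the 10 genes kept the sign of their log2 fold change. Anxa4, near 0, turned positive with limma-voom (0.038), with a filter of 10 CPM (0.046), and without mdx/Runx1f/f replicate 1 (0.03), mdx replicate 1 (0.13) or mdx replicate 2 (0.08), and leaving out each library gave it -0.15 to 0.13. Capn3 was called in 12 of the 14, Myof and Anxa1 in 3, Anxa2 and Anxa5 in 2 and the other 5 in none.

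Over all genes, higher and lower calls numbered 1499 and 887 with DESeq2, 211 and 74 with the replicate block, 1246 and 582 with a term for the number series and 5 and 3 through the description field, against 715 and 260. Leaving out a library gave 173 to 641 higher and 17 to 209 lower. Of the 10 genes, 4 were higher with DESeq2 and 3 with that term, and 0 were lower with the block or through the description field. Leaving out a library gave 0 to 2 higher and 0 to 1 lower. Of the wider lists, 5 rose and 2 fell with DESeq2, 5 rose with that term and 1 with the block, and leaving out a library gave 0 to 1 higher and 0 lower. The cause of these differences was not tested.

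The block used the title numbers 1 to 3, left out mdx replicate 4 and gave Capn3 -0.65 on the log2 scale (edgeR adjusted p = 0.0590). Deviations of same-numbered libraries correlated at -0.0069, 0.24 and 0.28, so 1 of 3 pairs did not deviate together and the numbers were not taken as pairs. Each same-numbered pair also falls in 1 series of animal numbers. The intervals rest on 3 libraries against 4, and the parts of depth and of the spread between animals in their width were not tested. P-values measure the spread between these animals only.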
